A study of Homo sapiens with 5 samples.

Results

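The genes described here are 10 non-coding hosts of small nucleolar RNAs (snoRNAs), GAS5, SNHG1, SNHG5, SNHG6, SNHG7, SNHG8, SNHG12, SNHG15, SNHG16 and ZFAS1. They were chosen by symbol, not by their levels, among the 25343 genes of the deposited table, though earlier results of these data were known. All 10 are in the table and all 10 passed the filter applied to every gene, a mean of at least 1 CPM (reads counted for the gene, scaled to the library total) over the libraries, which left 15024 genes.

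A snoRNA host gene carries snoRNAs in its introns. Splicing releases the intron, the snoRNA is trimmed out of it and joins proteins that guide chemical modification of ribosomal and other RNAs, and the spliced exons remain as a separate transcript. Several of these hosts begin with a tract of pyrimidines, as ribosomal protein genes do, and their spliced transcripts are often removed by nonsense-mediated decay (NMD), which depends on translation. GAS5 was named for its accumulation in cells whose growth is arrested.

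The RNA came from H157, an established human lung carcinoma cell line, made into 5 stable lines with 1 library each. The control line carried the empty vector (labelled pCDNA-ctl). The other 4 lines all carried YAP, the co-activator of the Hippo pathway, either alone, with full-length TEAD4 (YAP/TEAD4-FL), with TEAD4-S, a shorter form of the same factor that cannot bind DNA (YAP/TEAD4-S), or with RBM4, a splicing factor (YAP/RBM4). The study asked how these additions alter gene expression driven by YAP. With 1 library per line there was no replicate check, so no test between lines was made, and every 95% interval below covers counting error only. A difference between 2 libraries is therefore a difference between those libraries, and an effect of the construct and the history of 1 stable line cannot be told apart.

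The libraries held 1399452 (YAP) to 3015173 (YAP/TEAD4-S) counts. A single count was worth 0.715 CPM in the YAP library and 0.332 CPM in the YAP/TEAD4-S library, so low levels were least precise in YAP. YAP1 was at 33.1 CPM in vector and 59.4 to 136 CPM in the other libraries, and TEAD4 was at 121 CPM in YAP/TEAD4-FL and 50.03 CPM in YAP/TEAD4-S against 3.57 to 5.73 CPM elsewhere. RBM4 did not mark its line: the YAP/RBM4-labelled library held 167 CPM of RBM4, 0.828 times (0.710 to 0.964) the 202 CPM of the YAP library and 1.12 times (0.965 to 1.29) the 150 CPM of vector. That library is called the YAP/RBM4-labelled library throughout. Of the epithelial markers, KRT8 (253 to 1017 CPM), KRT18 (123 to 293 CPM) and CDH1 (80.4 to 124 CPM) were present, while EPCAM and KRT19 were at 0 in 3 libraries each and at no more than 2.29 CPM in the others. Of 6 markers of blood, endothelium and liver, CD3E, VWF and ALB were at 0 in all 5 libraries, but PTPRC was at 213 to 254 CPM and PECAM1 at 94.0 to 148 CPM, and the 6 summed to 308 CPM (YAP/TEAD4-S) to 402 CPM (YAP). The part of these marker counts in the results below was not tested.

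Around their annotated starts, 8 of the 10 genes had a promoter in the RefSeq table (build GRCh38.p14, 250 bases before the start and 50 after it). Each of those 8 promoters matched hg19 at 1 place on its annotated chromosome and strand, and other chromosomes were not searched for it. SNHG6 and SNHG15 had no entry. The 41 bases centred on each start are shown because a pyrimidine tract at the start is the sequence feature these hosts are known for. The sense strand is written 5′ to 3′, the first transcribed base is the one in the middle, and capitals mark the longest run of C or T (both runs where 2 tie).
SNHG12: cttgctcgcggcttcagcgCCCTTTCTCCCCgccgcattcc
SNHG7: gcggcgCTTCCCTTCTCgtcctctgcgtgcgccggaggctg
SNHG16: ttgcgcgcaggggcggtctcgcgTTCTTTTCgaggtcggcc
ZFAS1: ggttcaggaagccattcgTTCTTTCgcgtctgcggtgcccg
SNHG1: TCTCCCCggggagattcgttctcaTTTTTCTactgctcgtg
SNHG5: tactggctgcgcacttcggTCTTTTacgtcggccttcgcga
SNHG8: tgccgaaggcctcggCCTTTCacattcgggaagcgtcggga
GAS5: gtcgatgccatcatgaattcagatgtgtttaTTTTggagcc

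In hg19 these windows lie at chr1:28908365-28908405 (SNHG12, minus strand), chr9:139622616-139622656 (SNHG7, minus), chr17:74553826-74553866 (SNHG16, plus), chr20:47895159-47895199 (ZFAS1, plus), chr11:62623337-62623377 (SNHG1, minus), chr6:86388431-86388471 (SNHG5, minus), chr4:119199897-119199937 (SNHG8, plus) and chr1:173838163-173838203 (GAS5, minus). The run in SNHG12 was 12 bases long, a length reached by 4.34% of the 35116 promoters in the table, and it covered the start itself. The run in SNHG7 was 11 bases, a length reached by 6.08% of promoters, and ended 4 bases before the start. Runs of 8 bases in SNHG16 (17.8% of promoters reach this length), 7 in ZFAS1 and SNHG1 (26.1%) and 6 in SNHG5 and SNHG8 (39.5%) followed, against a median of 5 over all promoters. SNHG1 held 2 runs of this length, the second from 4 to 10 bases after the start. In ZFAS1, SNHG5, SNHG8 and SNHG12 the run included the first transcribed base. The window of GAS5 held only a run of 4 bases, and its RefSeq start, at base 173838183, lies upstream of the GENCODE gene, which begins at base 173838020. GGAATG or its reverse complement CATTCC, the core of the TEAD motif, was found on the sense strand of 1 of the 8 promoters, SNHG12, where 14.0% of all promoters hold it. CACGTG, the E-box, which reads the same on both strands, was found in 1, SNHG7, where 7.26% of all promoters hold it. The searched motifs do not overlap each other. A match describes the letters in this window only.

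The hosts carried between 1 and 11 snoRNAs each in the RefSeq annotation, 37 in all. GAS5 held 11, of which 10 were of the box C/D class, whose members guide methylation. SNHG1 held 9, SNHG12 held 4, SNHG16 and ZFAS1 held 3 each, SNHG5 and SNHG7 held 2 each, and SNHG6, SNHG8 and SNHG15 held 1 each. The snoRNAs themselves were almost absent from the table. Of the 33 listed there, 3 had any count over the 5 libraries, 1 count each (SNORD22 of SNHG1, SNORA9 of SNHG15 and SNORD12B of ZFAS1). The values below are therefore counts given to the host genes, not to the snoRNAs. Whether all of these reads came from the host transcripts could not be told, for the reason of strand given next.

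In GENCODE release 44 lifted to hg19, all 10 genes are annotated as long non-coding RNA. They lie at chr1:173827697-173838020 (GAS5, minus strand), chr11:62619450-62623425 (SNHG1, minus), chr6:86360209-86388650 (SNHG5, minus), chr8:67832796-67838633 (SNHG6, minus), chr9:139615818-139622636 (SNHG7, minus), chr4:119199858-119206471 (SNHG8, plus), chr1:28905050-28909644 (SNHG12, minus), chr7:45022618-45026560 (SNHG15, minus), chr17:74553809-74667067 (SNHG16, plus) and chr20:47894715-47916137 (ZFAS1, plus). Exons of a protein-coding gene on the opposite strand cover 58.9% of the exon bases of SNHG6 (MCMDC2), 37.6% of SNHG8 (PRSS12), 30.3% of SNHG7 (DIPK1B, listed as FAM69B) and 28.5% of SNHG16 (a gene with no symbol). Which strand the reads were counted on could not be told from the table. Over 417 pairs of a gene and an antisense gene that shares its symbol (names ending in -AS1 and the like; 399 different genes), at a mean of at least 10 CPM in one of them, the antisense gene was the higher one in 250 pairs, or 59.95%, and VIM-AS1 averaged 13801 CPM against 398 CPM of VIM. Each value below may therefore hold reads of a gene on the other strand. MCMDC2 was at 38.3 to 53.2 CPM, FAM69B at 34.5 to 50.4 CPM and PRSS12 at 0.932 to 2.29 CPM.

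Levels of the 10 genes differed widely. Per kilobase of the longest annotated transcript, and averaged over the 5 libraries, SNHG16 (20.02 CPM per kb) and SNHG7 (19.3) stood highest, followed by SNHG6 (10.2), GAS5 (6.45), ZFAS1 (2.55), SNHG5 (1.42), SNHG8 (1.15), SNHG12 (0.875), SNHG1 (0.723) and SNHG15 (0.419). Several neighbours in this order changed places between libraries, among them GAS5 and SNHG6, SNHG8 and SNHG5, and SNHG1 and SNHG12. The highest pair did so too: per kb, SNHG7 was above SNHG16 in vector (20.1 against 16.9) and below it in YAP (16.9 against 23.2). The order of SNHG8, SNHG5, SNHG1 and SNHG12 also depended on the length used. The lengths come from GENCODE, and the annotation on which the reads were counted is not given. In SNHG1 the longest transcript held 3771 of the 3976 bases that the gene spans, and in SNHG8 6166 of 6614. A shorter transcript would give a higher level per kb, so the order holds for these lengths only.

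Counts fell mostly into 2 kinds. The expected counts of SNHG7 and SNHG16 were fractional in all 5 libraries, as RSEM can give where a read has more than 1 possible origin, and their levels were the steadiest of the 10. Those of the other 8 were whole numbers (within 0.005) in 36 of 40 values. The exceptions were GAS5 in vector (40.69), YAP/TEAD4-S (38.04) and the YAP/RBM4-labelled library (103.02), and SNHG8 in vector (10.36). GAS5 thus fell between the 2 kinds. Leaving aside SNHG12, which was at 0 in 1 library, the levels of the other 8 differed by 2.74-fold (SNHG8) to 5.03-fold (SNHG15) between the highest and the lowest library. SNHG7 and SNHG16 also had the most counts, 529 and 823 over the 5 libraries, against 16 (SNHG15) to 245 (GAS5) for the others. Such a range includes counting error, which is larger at low counts, and its part in this contrast was not tested.

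SNHG16, host of the SNORD1 genes, was at 61.1 CPM in vector, 83.8 in YAP, 76.2 in YAP/TEAD4-FL, 63.3 in YAP/TEAD4-S and 76.6 in the YAP/RBM4-labelled library, a 1.37-fold range. It was the one gene of the 10 with its highest level in YAP, at 1.37 times vector (1.06 to 1.77). SNHG7, host of the SNORA17 pair, was at 47.3 CPM in vector, 39.8 in YAP, 51.7 in YAP/TEAD4-FL, 40.4 in YAP/TEAD4-S and 47.9 in the YAP/RBM4-labelled library. All 8 intervals of its ratios between libraries included 1.

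GAS5 was at 19.0 CPM in vector (41 rounded counts), 10.0 in YAP (14), 20.4 in YAP/TEAD4-FL (49), 12.6 in YAP/TEAD4-S (38) and 39.3 in the YAP/RBM4-labelled library (103). Its level in the last library stood apart from the other 4, whose upper limits did not exceed 27.0 CPM against a lower limit of 32.1 CPM there. The antisense gene GAS5-AS1, which overlaps 2.68% of the GAS5 exon bases, was also highest in that library, at 9.93 CPM against 2.80 to 5.002 CPM in the others.

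ZFAS1, which starts 248 bases from the antiviral gene ZNFX1 on the opposite strand, was at 17.7 CPM in vector (38 counts), 5.72 in YAP (8), 10.4 in YAP/TEAD4-FL (25), 8.95 in YAP/TEAD4-S (27) and 14.9 in the YAP/RBM4-labelled library (39). It was the one gene of the 10 that was highest in vector. ZNFX1 itself was nearly level, at 57.9 to 70.1 CPM.

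SNHG6, host of SNORD87, was at 19.6 CPM in vector (42 counts), 14.3 in YAP (20), 24.2 in YAP/TEAD4-FL (58), 7.30 in YAP/TEAD4-S (22) and 27.1 in the YAP/RBM4-labelled library (71). Its lowest library was YAP/TEAD4-S, whose upper limit of 11.0 CPM lay below the lower limits of vector (14.1), YAP/TEAD4-FL (18.4) and the YAP/RBM4-labelled library (21.2), and overlapped the interval of YAP (8.73 to 22.1). The opposite-strand MCMDC2 was at 0.719 times vector (0.549 to 0.938) in YAP/TEAD4-S on library totals and at 0.885 times (0.675 to 1.15) with TMM factors, which are explained below.

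SNHG5, host of the SNORD50 pair, was at 7.93 CPM in vector (17 counts), 3.57 in YAP (5), 11.3 in YAP/TEAD4-FL (27), 5.31 in YAP/TEAD4-S (16) and 13.0 in the YAP/RBM4-labelled library (34). SNHG8, host of SNORA24, was at 4.83 CPM in vector (10 rounded counts), 5.002 in YAP (7), 4.59 in YAP/TEAD4-FL (11), 8.29 in YAP/TEAD4-S (25) and 12.6 in the YAP/RBM4-labelled library (33). SNHG5 followed GAS5 in the order of the 5 libraries, whereas SNHG8 was nearly level in the first 3 and higher in the last 2.

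The 3 lowest genes had too few counts for most comparisons. SNHG1, the host of SNORD22 and SNORD25 to SNORD31, had 2 counts in vector, 3 in YAP, 9 in YAP/TEAD4-FL, 9 in YAP/TEAD4-S and 10 in the YAP/RBM4-labelled library. SNHG12 had 3, 0, 3, 8 and 9 counts in the same order, and SNHG15 had 2, 1, 8, 2 and 3. The count of 0 for SNHG12 in YAP allows a level of up to 2.14 CPM, taking 3 counts as the limit. SLC3A2, a subunit of amino acid transporters, starts 51 bases from SNHG1 on the opposite strand and was at 66.9, 42.7, 56.0, 35.1 and 78.3 CPM, an order of libraries that SNHG1 did not share.

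**Figure D1:**
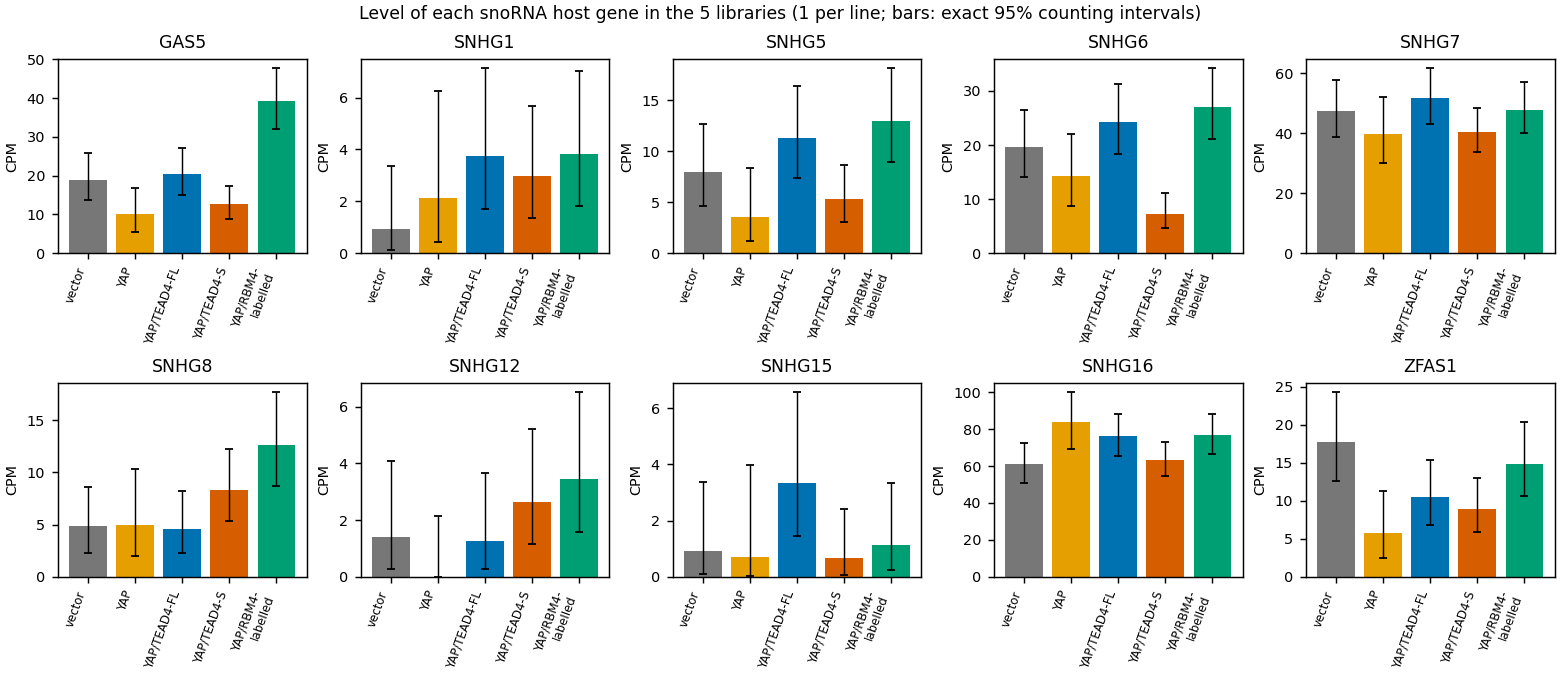
Level in CPM (y axis, linear and from 0, with its own scale for each gene) of the 10 snoRNA host genes in the 5 libraries (x axis, 1 bar per library); the error bars are exact 95% Poisson intervals of the rounded counts, and for the count of 0 (SNHG12 in YAP) the bar ends at 3 counts. GAS5 reaches 39.3 CPM in the YAP/RBM4-labelled library, SNHG6 is lowest in YAP/TEAD4-S at 7.30 CPM, ZFAS1 is highest in vector at 17.7 CPM, and the bars of SNHG7 and SNHG16 are nearly level.

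Summed over the 10 genes, the level was 181 CPM in vector (163 to 200), 165 in YAP (144 to 188), 207 in YAP/TEAD4-FL (190 to 226), 152 in YAP/TEAD4-S (139 to 167) and 239.9 in the YAP/RBM4-labelled library (222 to 259.7). On library totals the sum in YAP/TEAD4-S was 0.844 times vector (0.735 to 0.968) and 0.736 times YAP/TEAD4-FL (0.647 to 0.837). With the TMM factors explained below it was 1.04 times (0.904 to 1.19) and 0.968 times (0.850 to 1.10), and both intervals included 1. The sum was weighted to the pair with fractional counts. SNHG7 and SNHG16 together made up 60.0% of it in vector (54.99 to 65.0%), 74.9% in YAP (68.8 to 80.3%), 61.7% in YAP/TEAD4-FL (57.3 to 66.1%), 68.0% in YAP/TEAD4-S (63.6 to 72.3%) and 51.9% in the YAP/RBM4-labelled library (47.9 to 55.9%). These shares are taken within a library and do not depend on how libraries are scaled to each other. The share of the other 8 genes was lowest in YAP and highest in the YAP/RBM4-labelled library, and the intervals of those 2 libraries did not overlap. GAS5 alone made up 6.06% (3.35 to 9.96%) of the counts of the 10 genes in YAP and 16.4% (13.6 to 19.5%) in the YAP/RBM4-labelled library.

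**Figure D2:**
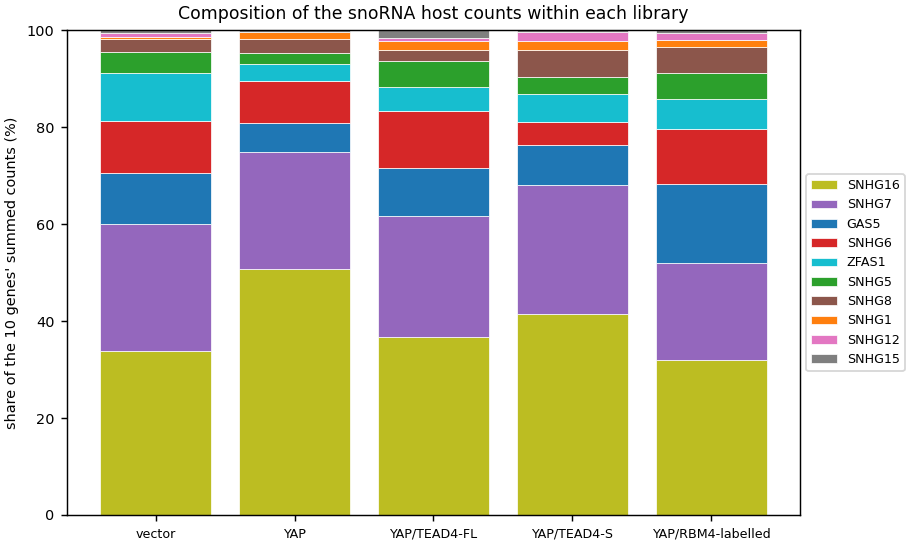
Share in percent (y axis) of each snoRNA host gene in the summed counts of the 10, within each of the 5 libraries (x axis). SNHG16 takes 50.8% in YAP and 31.9% in the YAP/RBM4-labelled library, and GAS5 takes 6.06% and 16.4%.

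The same division was seen on the CPM scale. The split into these 2 sets was made after their values were seen, and is a description. SNHG7 and SNHG16 summed to 104 to 128 CPM in the 5 libraries. The other 8 summed to 72.3 CPM in vector (61.3 to 84.6), 41.4 in YAP (31.5 to 53.6), 79.3 in YAP/TEAD4-FL (68.4 to 91.4), 48.8 in YAP/TEAD4-S (41.2 to 57.3) and 115 in the YAP/RBM4-labelled library (103 to 129). Against vector, the other 8 were at 0.573 (0.416 to 0.780) in YAP and 1.60 (1.31 to 1.95) in the YAP/RBM4-labelled library. Against YAP, they were at 1.91 (1.42 to 2.61) in YAP/TEAD4-FL and 2.78 (2.09 to 3.75) in the YAP/RBM4-labelled library, while SNHG7 and SNHG16 were at 1.04 (0.856 to 1.25) and 1.01 (0.836 to 1.22). In YAP/TEAD4-S the other 8 were at 0.675 (0.535 to 0.851) against vector and 1.18 (0.863 to 1.62) against YAP. With TMM factors these intervals were 0.658 to 1.05 and 1.08 to 2.03, so the first then included 1 and the second lay above 1.

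The 8 comparisons that follow share libraries: 4 use vector, 3 use YAP, and YAP/TEAD4-S is also set against YAP/TEAD4-FL. A gene was counted as higher or lower at a ratio of at least 2-fold, computed on log2(CPM + 0.5), and a list's median log2 ratio is given after subtraction of the median over all 15024 genes. In YAP/TEAD4-S a single gene, VAX1, took 140664 CPM against 7133 to 63157 CPM in the other libraries, and the median of all genes on the log2 scale was −0.29 against vector and −0.38 against YAP/TEAD4-FL. Ratios that involve this library were therefore also computed with TMM factors, which remove that shift.

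In YAP against vector, GAS5 and ZFAS1 were lower and SNHG16 was higher beyond counting error. ZFAS1 was at 0.323 times vector (0.130 to 0.702) and GAS5 at 0.527 times (0.263 to 0.980). At least 2-fold, 3 of the 10 genes were lower and 0 higher, where 9.57% of all genes were lower and 4.90% higher. The 3 were ZFAS1, SNHG5 (0.451, 0.130 to 1.27) and SNHG12, which had 0 counts against 3, at or under the floor in both libraries. The interval lay below 1 for 2 of the 10 genes (7.41% of all genes) and above 1 for 1 (8.68%). The median of the 10 was −0.35 relative to all genes, or −0.24 with the 0 of SNHG12 set to 3 counts, and 3 of the 10 were above the median gene.

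In YAP/TEAD4-FL against vector, no interval of the 10 genes excluded 1. At least 2-fold, 2 were higher and 0 lower, beside 8.90% of all genes higher and 6.00% lower. Both rest on 2 counts in vector: SNHG1 was at 4.03 times (0.834 to 38.3) and SNHG15 at 3.58 times (0.714 to 34.6). GAS5 was at 1.08 (0.692 to 1.66), SNHG7 at 1.09 (0.830 to 1.43) and SNHG6 at 1.24 (0.817 to 1.88). ZFAS1 was at 0.589 (0.341 to 1.00), and with TMM factors its interval, 0.319 to 0.936, lay below 1. The median was 0.12 relative to all genes, and 0.06 to 0.21 under the other settings. The 0.21, without the filter, equals the median before subtraction.

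In YAP/TEAD4-S against vector, SNHG6 was at 0.373 (0.212 to 0.639), and at 0.261 to 0.785 with TMM factors. It was the 1 gene at least 2-fold lower, and SNHG1 (3.20, 0.663 to 30.4) the 1 gene at least 2-fold higher, beside 11.0% of all genes lower and 3.50% higher. ZFAS1 was at 0.505 (0.297 to 0.850), so that the interval lay below 1 for 2 of the 10 genes, where it did for 24.4% of all genes. With TMM factors the interval of ZFAS1, 0.365 to 1.05, included 1, and those of SNHG8 (1.01 to 5.10) and SNHG16 (1.02 to 1.61) lay above 1. The median was 0.02 relative to all genes.

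In the YAP/RBM4-labelled library against vector, GAS5 was at 2.07 (1.42 to 3.03) and SNHG8 at 2.61 (1.30 to 6.15), and both intervals stayed above 1 with TMM factors. SNHG16 was at 1.25 (1.00 to 1.58), with an interval above 1 only on library totals. These 3 of the 10 genes stand beside 14.9% of all genes with an interval above 1. At least 2-fold, 4 were higher and 0 lower, where 9.22% of all genes were higher and 3.47% lower. The 4 were GAS5, SNHG8, SNHG1 (4.09, 0.873 to 38.4) and SNHG12 (2.46, 0.613 to 14.1). ZFAS1 was at 0.840 (0.524 to 1.35) and SNHG7 at 1.01 (0.773 to 1.33). The median was 0.40 relative to all genes (0.20 under a filter at 10 CPM on average), with 8 of the 10 above the median gene.

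**Figure D3:**
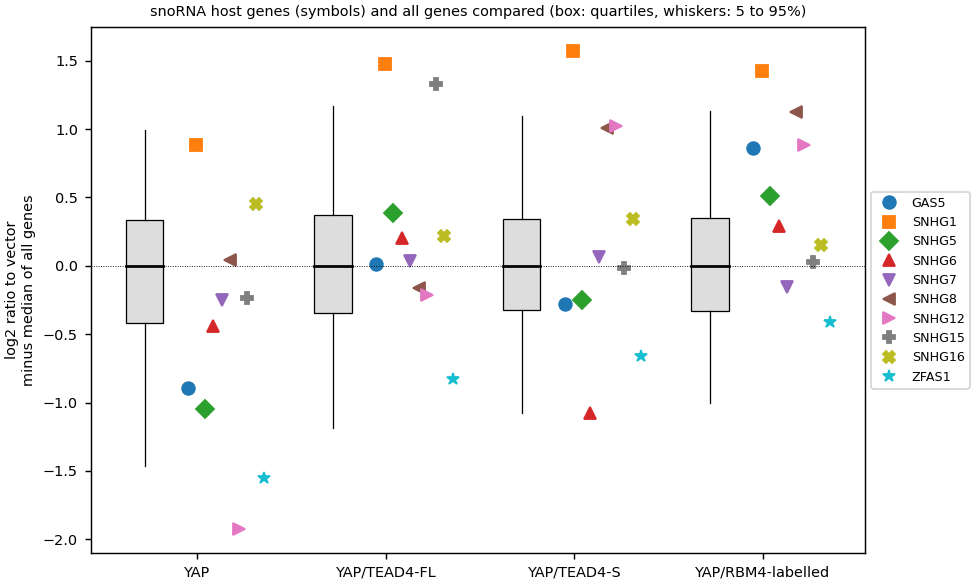
Log2 ratio to vector, on log2(CPM + 0.5) and minus the median of all genes (y axis), of the 10 snoRNA host genes (symbols) in each of the other 4 libraries (x axis); the boxes hold the middle 50% of the 15024 genes and the whiskers run from 5% to 95%. In YAP 3 of the 10 symbols lie above 0, and in the YAP/RBM4-labelled library 8 do; SNHG12 in YAP and SNHG1 rest on 0 to 3 counts in one of the libraries.

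Addition of full-length TEAD4 was compared with YAP alone. SNHG5 was at 3.15 (1.20 to 10.5) and GAS5 at 2.04 (1.11 to 4.01), and SNHG6 at 1.69 (1.00 to 2.97) was the third gene with an interval above 1, which it kept only on library totals. An interval above 1 was found for 9.53% of all genes. At least 2-fold, 3 were higher and 0 lower, against 11.6% and 3.94% of all genes. They were SNHG5, SNHG15 (8 counts against 1; ratio 4.67, 0.626 to 207) and SNHG12 (3 against 0, with no fold given), while GAS5 lay just under the threshold on log2(CPM + 0.5). SNHG16 was at 0.909 (0.720 to 1.16). The median was 0.68 relative to all genes, or 0.62 with the 0 at 3 counts, and 8 of the 10 were above the median gene.

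Addition of TEAD4-S to YAP moved no gene of the 10 beyond counting error under both scalings. SNHG6 was at 0.511 (0.266 to 0.986) and SNHG16 at 0.756 (0.599 to 0.962), and both intervals included 1 with TMM factors. Intervals below 1 were found for 22.7% of all genes. At least 2-fold, 1 gene was higher and 0 lower, where 6.10% of all genes were higher and 8.62% lower. That gene was SNHG12, at least 1.24-fold higher against the floor of 3 counts in YAP, with a counting interval of the ratio that began at 0.792 and so included 1. The median was 0.65 relative to all genes (0.58 with the 0 at 3 counts), and 0.37 under a filter at 10 CPM on average. Without the filter it was 0.36, which equals the median before subtraction.

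Of the 8 comparisons, the YAP/RBM4-labelled library against YAP held the most differences at the thresholds used here. At 1.5-fold it tied with YAP/TEAD4-FL against YAP, at 7 of the 10 genes each. GAS5 was at 3.93 (2.24 to 7.44), SNHG5 at 3.63 (1.41 to 11.9) and ZFAS1 at 2.60 (1.20 to 6.45). SNHG8 was at 2.52 (1.10 to 6.75) and SNHG6 at 1.90 (1.14 to 3.29), and these 5 intervals lay above 1 under both scalings. SNHG12, with 9 counts against 0, was 1.60-fold higher when set against the floor of 3 counts in YAP. Its counting interval began at 1.05 on library totals and at 0.963 with TMM factors, so it lay above 1 on totals only. In all, 6 of the 10 genes had an interval above 1, where 12.4% of all genes did. At least 2-fold, 5 were higher (GAS5, SNHG5, SNHG8, SNHG12 and ZFAS1) and 0 lower, beside 13.3% and 2.94% of all genes. SNHG7 at 1.21 (0.871 to 1.68) and SNHG16 at 0.915 (0.727 to 1.16) did not differ beyond counting error. The median was 0.90 relative to all genes, or 0.63 with the 0 at 3 counts. GAS5, SNHG5 and ZFAS1 were at their lowest of the 5 libraries in YAP, which is the shallowest library.

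YAP/TEAD4-S was set against YAP/TEAD4-FL to compare the isoforms. SNHG6 was at 0.302 (0.176 to 0.5002), and at 0.231 to 0.658 with TMM factors. GAS5 was at 0.617 (0.393 to 0.961), SNHG5 at 0.471 (0.237 to 0.906) and SNHG15 at 0.199 (0.0206 to 0.996), with 2 counts against 8. Those 3 intervals included 1 with TMM factors, and that of SNHG8 (1.81; 0.857 to 4.07 on totals) then lay above 1, at 1.13 to 5.35. Intervals below 1 were thus found for 4 of the 10 genes on totals, where 30.8% of all genes had one. At least 2-fold, 3 were lower (SNHG5, SNHG6 and SNHG15) and 0 higher, against 11.2% and 2.22% of all genes. This split held on library totals: with TMM factors, with DESeq2 size factors and with totals that leave out the 50 most abundant genes, 2 were lower and 2 higher. The median was 0.06 relative to all genes. YAP1 itself was at 0.438 (0.363 to 0.527) and TEAD4 at 0.415 (0.339 to 0.507) in this comparison, so the construct genes themselves differed in level between these libraries.

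**Figure D4:**
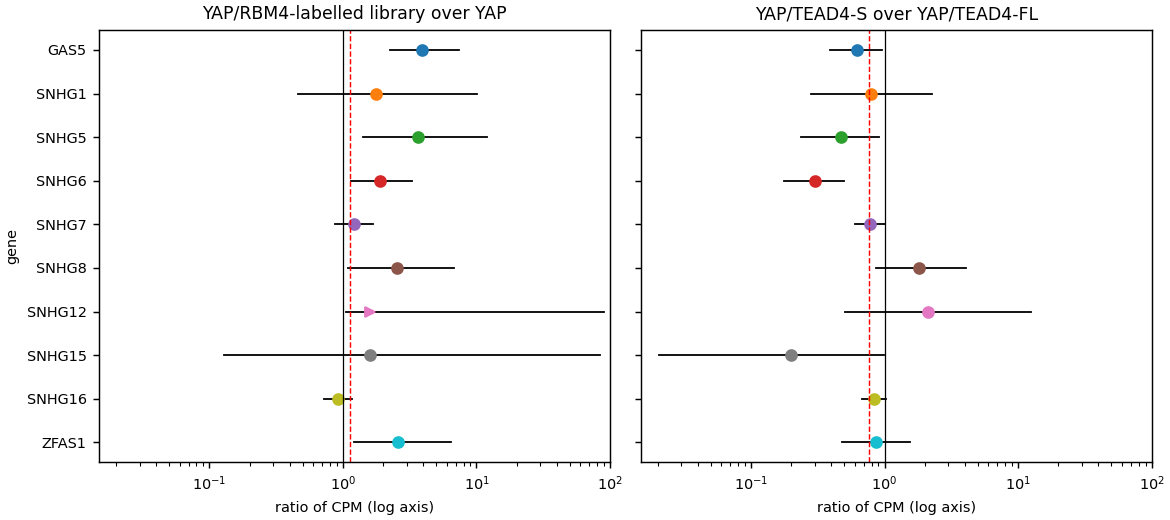
Ratio of CPM (x axis, logarithmic) of each snoRNA host gene (y axis) in the YAP/RBM4-labelled library over YAP (left) and in YAP/TEAD4-S over YAP/TEAD4-FL (right), with exact 95% counting intervals; the solid line marks 1, the dashed line the median ratio of all genes (1.13 and 0.766), and the triangle a lower bound for SNHG12, which had 0 counts in YAP and whose interval has no upper limit. GAS5 lies at 3.93 on the left and SNHG6 at 0.302 on the right, and SNHG7 and SNHG16 lie near the dashed lines.

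Other genes of the pathway were set beside the 10 hosts, by lists of symbols. Of 21 symbols of other non-coding hosts, 14 were in the table and 10 passed the filter. In the YAP/RBM4-labelled library against YAP their median was −0.06 relative to all genes, with 0 of 10 intervals excluding 1 on library totals, beside 0.90 and 6 of 10 for the hosts described above. This difference between the lists was not tested. SNHG20 was at 79.4 to 100.3 CPM and SNHG4 at 77.5 to 103 CPM. SNHG4 was highest in YAP/TEAD4-S, at 1.32 times vector (1.09 to 1.60), or 1.62 times (1.34 to 1.97) with TMM factors. LRRC75A-AS1, host of the SNORD49 and SNORD65 genes, was at 35.8 CPM in YAP against 51.9 CPM in vector, a ratio of 0.690 (0.484 to 0.972).

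Of 51 protein-coding hosts, most of them ribosomal protein and translation factor genes, 50 passed the filter. In YAP/TEAD4-FL against vector their median was 0.39 relative to all genes, 46 of the 50 were above the median gene, and 35 had an interval above 1, where 13.1% of all genes did. With TMM factors 26 of the 50 did, and 9.96% of all genes. PPAN, a ribosome assembly factor, was at 4.62 (2.58 to 8.87) and NOP56, a core protein of box C/D particles, at 2.40 (1.74 to 3.35). In the same comparison the 10 non-coding hosts had a median of 0.12 and 0 intervals excluding 1. In the YAP/RBM4-labelled library against YAP the coding hosts had a median of 0.42, with 34 of 50 intervals above 1 (12.4% of all genes) and 1 below (6.94%). In YAP/TEAD4-S against YAP/TEAD4-FL their median was −0.20, with 5 of 50 above the median gene. With TMM factors 22 of the 50 had an interval below 1 there, where 6.84% of all genes did.

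The list of proteins of snoRNA particles and their assembly shares members with the coding hosts, among them NOP56 and NOP58. All 17 of these proteins passed the filter. Their median was 0.18 relative to all genes in YAP/TEAD4-FL against vector, where 7 of 17 intervals lay above 1 (13.1% of all genes). It was −0.22 in YAP/TEAD4-S against YAP/TEAD4-FL, where 8 of 17 lay below 1 on library totals (30.8% of all genes) and 4 of 17 with TMM factors (6.84%). FBL, the methyltransferase of box C/D particles, was at 77.6 CPM in YAP/TEAD4-FL and 39.1 CPM in YAP/TEAD4-S, a ratio of 0.504 (0.397 to 0.639), or 0.663 (0.522 to 0.840) with TMM factors. Of the 16 NMD factors, the machinery that degrades spliced host transcripts, 4 had an interval above 1 and 0 below in the YAP/RBM4-labelled library against vector, beside 14.9% and 7.02% of all genes, with a median of 0.22. With TMM factors 2 of the 16 had an interval above 1, beside 8.65% of all genes. UPF2, a core factor of the pathway, was at 19.1 CPM there and 10.7 CPM in vector, a ratio of 1.78 (1.07 to 3.06) whose interval included 1 with TMM factors (0.958 to 2.75). A link between the levels of NMD factors and of the hosts was not tested.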

How the data were processed

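RNA from 5 H157 lines (1 library each) was analysed. The authors used RSEM (its version and gene annotation are not given in the sources used here) with Bowtie2, release 2.2.5 according to the submitters' processing notes, on hg19. The deposited values are expected counts per gene, not scaled between libraries. The protocols name polyadenylated RNA, a total RNA kit and rRNA removal, so the RNA selection is uncertain. Column names hold the words second_strand, and strand handling is not otherwise given.

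Groups follow the labels; the names YAP/TEAD4-FL and YAP/TEAD4-S are the study's. CPM were computed on library totals of 1399452 to 3015173 counts. A pseudocount of 0.5 CPM was added before log2 ratios, and the 15024 genes averaging at least 1 CPM were kept. Counts were rounded for exact 95% intervals: Poisson for a level, binomial (Clopper-Pearson) for a share, and conditional binomial for a ratio. A 0 was taken as up to 3 counts. PCR duplicates were not marked by molecular identifiers, so intervals cover counting error alone. No test was run, because each line has 1 library, and the authors' EBSeq calls were not repeated. TMM factors came from edgeR 4.0.16 and size factors from DESeq2 1.42.0, both under R 4.3.3. Remaining steps ran in Python 3.11.15 (pandas 2.3.3, numpy 2.4.6, matplotlib 3.10.9, scipy 1.17.1). Ratios and intervals were tested on simulated data.

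The 10 genes and all lists were chosen with earlier results of these data known. Named genes were the 10 hosts, at most 4 genes with the largest ratios of each other list at 10 CPM or more on average, genes overlapping a host's exons, coding genes that start within 1000 bases of a host on the opposite strand, the construct genes, the cell type markers and the most abundant gene. SNHG20, SNHG4, VIM-AS1 and VIM were named after their values were seen. Some genes that the rule names are not reported here. Alternatives were other scalings, pseudocounts, filters and folds, and exon unions as lengths. Sequences are from RefSeq (GRCh38.p14) and positions from hg19.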

Additional observations from a re-analysis of the deposited data

How the results depend on the processing

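Each median was set against a band from the median of the hosts' lower counting limits to the median of their upper limits. That band is as wide as the interval of a typical single host and is not an interval of the median itself. Staying within it, as all 56 alternatives did, therefore says little. Over the other scalings, pseudocounts and filters the median of the 10 hosts ran from −0.49 to −0.32 in YAP, 0.06 to 0.21 in YAP/TEAD4-FL, −0.27 to 0.07 in YAP/TEAD4-S and 0.20 to 0.57 in the YAP/RBM4-labelled library, each against vector. Against YAP it ran from 0.60 to 0.78 in YAP/TEAD4-FL, 0.36 to 0.69 in YAP/TEAD4-S and 0.79 to 1.08 in the YAP/RBM4-labelled library, and in YAP/TEAD4-S against YAP/TEAD4-FL from −0.19 to 0.06. The 2 ranges that cross 0 give no sign. The limits 0.21, 0.57, 0.78, 0.36 and 1.08 come from the setting without the filter. They equal the medians of the hosts before subtraction, so any shift between whole libraries remains in them. Of 64 recounts of hosts at least 2-fold apart, 22 moved by more than 1.5 times. With a pseudocount of 2 CPM the count was 1 in YAP against vector (from 3), 0 in YAP/TEAD4-FL (from 2), 1 in YAP/TEAD4-S (from 2) and 1 in the YAP/RBM4-labelled library (from 4), each against vector, and 1 in YAP/TEAD4-FL against YAP (from 3). Under a filter at 10 CPM on average, which left 5 of the 10 hosts, it was 1, 0, 1 and 1 for the same 4 libraries against vector, 0, 0 and 2 for YAP/TEAD4-FL, YAP/TEAD4-S and the YAP/RBM4-labelled library against YAP, and 1 for YAP/TEAD4-S against YAP/TEAD4-FL. A fold threshold of 1.5 gave 5 in YAP and 5 in YAP/TEAD4-S against vector, 7 in YAP/TEAD4-FL and 4 in YAP/TEAD4-S against YAP, and 6 in YAP/TEAD4-S against YAP/TEAD4-FL. The YAP/RBM4-labelled library against vector had 2 under TMM scaling and 2 under the size factors of DESeq2. Leaving the 50 most abundant genes out of the totals gave 4 in YAP/TEAD4-S against vector and 2 in YAP/TEAD4-S against YAP (from 1). Per kb of all annotated exons, 6 of the 10 hosts kept their place in the order of levels.

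Depth limits the low hosts: SNHG1, SNHG12 and SNHG15 had at most 10 counts in any library, and with 1 library per line the spread between cultures is unknown. No paired analysis was possible because no line has a second library.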
